A study of Mus musculus with 32 samples.

Results

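The vacuolar proton pump (V-ATPase) was followed through 10 of its genes in BV-2 cells. BV-2 is a cell line derived from mouse microglia, the phagocytes that reside in brain tissue. The genes were chosen by name from the 45706 genes of the deposited table, and all 10 were found there: the V1 subunits Atp6v1a, Atp6v1b2, Atp6v1c1 and Atp6v1h, the V0 subunits Atp6v0a1, Atp6v0c, Atp6v0d1 and Atp6v0d2, and the accessory proteins Atp6ap1 and Atp6ap2. The 8 groups of 4 RNA sequencing libraries combined a transfected microRNA mimic (miR-146a-5p, miR-29a-3p, miR-7a-5p or a scramble negative control) with vehicle (VEH) or with LPS, at 10 ng/ml for 24 h. LPS is lipopolysaccharide from the outer membrane of bacteria, to which macrophages respond. The genotype is given as wild type throughout, all libraries come from the 1 cell line, and the labels and the study's methods differ on whether LPS came before or after transfection. Groups are written below as condition and mimic, for example LPS_miR-29a, and libraries by their label number, 1 to 4 in each group.

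The V-ATPase is a rotary machine that spends ATP to move protons into lysosomes, endosomes and phagosomes, and the acid it makes lets their hydrolases work. Its V1 part sits in the cytosol and splits ATP, and its V0 part lies in the membrane and carries the protons. In macrophages and microglia it acidifies the compartments in which engulfed material is broken down, and several subunits exist as isoforms from separate genes.

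Library totals ran from 1122014 to 20407780 estimated counts, with a median of 6998706. Small structural RNA genes held 33% to 36.2% of the total in VEH_miR-7a replicates 2, 3 and 4, against 6.44% in replicate 1 of that group and at most 15.9% elsewhere. These 3 libraries, with 1122014 to 2289527 estimated counts, stand apart by this share and enter every VEH_miR-7a value below. The share was lower under LPS without overlap with scramble (3.02% to 5.8% against 6.82% to 12.3%) and with miR-29a (2.81% to 4.69% against 4.71% to 15.9%). With miR-7a it was 3.08% to 3.37% under LPS, below every vehicle library. With miR-146a the ranges overlapped (2.7% to 5.91% against 3% to 6.94%). Fits without the structural RNA genes are among the alternatives below. The labels name the cell type glioblastoma. Of the microglia and macrophage markers, Csf1r, Itgam, Cd68, Ptprc, Spi1 and Tyrobp were above 66 CPM (counts scaled to library size) in every library, Aif1 lay between 4.06 and 26.4 CPM, and Cx3cr1 was at 0 in 5 libraries with a highest value of 6.66 CPM. The astrocyte and glioma markers Gfap, Aqp4, Olig2, Sox2, S100b and Egfr did not exceed 1.09 CPM in any library, and each was at 0 in 19 or more. The summed 8 microglia and macrophage markers ranged from 2805 to 4107 CPM in VEH_scramble and from 2308 to 3000 CPM in LPS_scramble. In LPS_miR-29a they ranged from 1840 to 2406 CPM, with both ends the lowest of the 8 groups. The part of these marker levels in the results below was not tested, and in bulk RNA fewer cells of a kind and less RNA per cell cannot be told apart.

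The 3 mimics carry different seeds, the bases that pair with a target, so they are shown first with every seed match found in the 3′ untranslated parts of the 10 genes. The mature sequences (RefSeq) are written 5′ to 3′ with the seed, bases 2 to 8, in capitals.
miR-7a-5p: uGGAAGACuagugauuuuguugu
miR-29a-3p: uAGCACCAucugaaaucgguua
miR-146a-5p: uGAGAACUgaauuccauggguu
A 7-base match to the seed was sought in the 3′ untranslated part of 1 annotated transcript of each gene (GENCODE on GRCm38). Only 3 matches were found, in 2 genes, and are given here on the gene's strand with the match in capitals.
Atp6v1a with miR-29a-3p: gggaggtggattagTGGTGCTg
Atp6v1a with miR-146a-5p: ttaaaagattatgcAGTTCTCt
Atp6v0c with miR-146a-5p: ctgtgtccaataaaAGTTCTCg
The first lies at chr16:44085993-44086014, the second at chr16:44085630-44085651 and the third at chr17:24163872-24163893, all on the minus strand. Elsewhere in the transcripts, Atp6v1a, Atp6v1h and Atp6ap1 each held 1 match for miR-146a-5p, and Atp6v1b2 and Atp6ap1 each held 1 for miR-29a-3p. Among 20450 genes with an annotated 3′ untranslated part, 11% held a match for miR-7a-5p, 12.2% for miR-29a-3p and 10.3% for miR-146a-5p. The transcripts of Atp6v0d2 and Atp6v0a1, which moved most in the comparisons below, held no match for any of the 3 seeds at any position. A match is a run of letters and not a measured binding site, and no match says only that these 7 letters are absent from the transcript searched.

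All 10 genes were expressed in all 32 libraries, at levels that differed by more than an order of magnitude per kilobase of transcript. By the median CPM per kb, Atp6v0c, the proteolipid of the membrane rotor ring, came first with 432, followed by Atp6v1b2, the B subunit of the ATP-splitting head in macrophages and brain, with 324. Atp6v0d1, the widely expressed form of the subunit that couples rotor and axle, followed with 186, Atp6v1a, the catalytic A subunit, with 171, and Atp6v1c1, a stator subunit that links V1 to V0, with 167. These 3 medians lie inside one another's ranges over libraries (124 to 265, 125 to 233 and 125 to 204 CPM per kb). The ranges do not settle their order, and the order within libraries was not tested. Atp6ap1, an accessory protein of pump assembly, stood at 110, Atp6v1h, a regulatory V1 subunit, at 84.8, and Atp6v0a1, a form of the large membrane subunit that lines the proton path, at 66.9. Their ranges were 70.8 to 137, 49 to 116 and 31.3 to 93.9 CPM per kb. Atp6v0d2, the form of the d subunit known from osteoclasts and macrophages, had a median of 39.5, and Atp6ap2, also called the prorenin receptor, one of 25 CPM per kb. Atp6v0d2 ran from 4.75 to 122 and Atp6ap2 from 13.1 to 46.5 CPM per kb. From Atp6ap1 down to Atp6ap2, each median lay inside the range of the next gene in the order and the reverse. These ranges do not settle the order of neighbours either, and it was not tested within libraries.

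Atp6v0c levels are less certain than the others. It has annotated processed pseudogene copies, of which Atp6v0c-ps2 is itself in the table, and reads of the gene and its copies may have been split between them. Atp6v1b2 and Atp6v1h each overlap a gene on the opposite strand (Slc18a1 and Rgs20) without overlap of exons, and Mir6928 lies within Atp6v0a1 on the same strand, outside its exons.

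**Figure D1:**
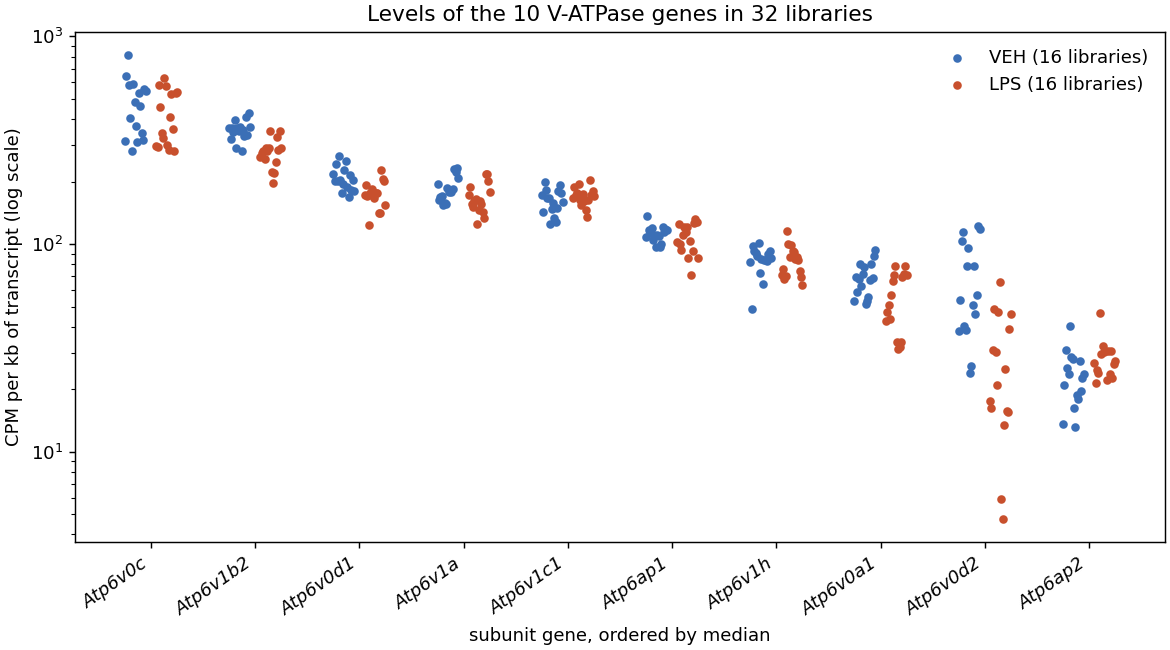
Level of each of the 10 genes in every library, in CPM per kilobase of transcript on a log axis, with the 16 VEH libraries in blue and the 16 LPS libraries in orange. The genes are ordered by median, from 432 for Atp6v0c to 25 for Atp6ap2, and Atp6v0d2 has the widest spread.

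Between groups, the mean of Atp6v0d2 varied most, from 31.3 CPM in LPS_miR-29a to 218 CPM in VEH_miR-146a, a ratio of 6.97. The next ratio of highest to lowest group mean was 2.54 for Atp6v0a1, with 131 CPM in LPS_miR-29a and 332 CPM in VEH_miR-146a. Atp6ap2 followed with 2.1, and the other 7 genes had ratios between 1.28 for Atp6v1c1 and 1.73 for Atp6v1b2. LPS_miR-29a held the lowest mean of 7 of the 10 genes.

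The effect of LPS was asked first with the scramble control. Atp6v0d2 lies on chromosome 4 (19876841 to 19922605, minus strand, GRCm38). It was at 97.3, 137, 263 and 289 CPM in VEH_scramble libraries 1 to 4 and at 44.5, 41.3, 78.1 and 123 CPM in the LPS_scramble libraries. The groups overlapped, because LPS_scramble library 4 lay above VEH_scramble library 1, but within each number the LPS library was the lower one. Atp6v0d2 fell by 1.41 ± 0.39 on the log2 scale (SE, n = 4 per group), to 0.376-fold, with an adjusted p of 0.0298 by limma voom over all genes tested. It was the 1 member of 10 called, where 17.5% of all 12332 genes tested were called at an adjusted p under 0.05. Same-numbered libraries deviated together in this comparison, and with the replicate number as a block it fell by 1.47 ± 0.15, with an adjusted p of 0.000279. Without the block the call rested on single libraries: the difference was -1.22 without VEH_scramble replicate 3 (adjusted p = 0.0858) and -1.19 without VEH_scramble replicate 4 (adjusted p = 0.0843). It was -1.26 without LPS_scramble replicate 1 (adjusted p = 0.0753) and -1.19 without LPS_scramble replicate 2 (adjusted p = 0.0785).

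With the replicate block, 2 more members passed in the scramble control, for 3 of 10 against 24.9% of all genes. Atp6v1b2 was at 1022, 904, 1025 and 983 CPM under vehicle and at 738, 775, 790 and 724 CPM under LPS, so the groups did not overlap. Its difference was -0.36 ± 0.12 with the block (adjusted p = 0.0499 by limma voom) and -0.36 ± 0.13 in the unblocked limma fit of the same groups (adjusted p = 0.0774). Without a block it was called with all 8 groups in 1 fit (adjusted p = 0.0149) and by DESeq2 (adjusted p = 0.00528). Atp6v0a1 went from 213, 278, 236 and 272 CPM under vehicle to 170, 189, 204 and 175 CPM under LPS, again without overlap. Its difference was -0.41 ± 0.12 with the block (adjusted p = 0.0332) and -0.42 ± 0.14 without it (adjusted p = 0.0599, against 0.00866 with all 8 groups and 0.0182 by DESeq2). Without VEH_scramble replicate 1, the unblocked fit called Atp6v0a1 at -0.50 (adjusted p = 0.0262) and Atp6v0c at -0.80 (adjusted p = 0.0424). The remaining genes lay between -0.52 for Atp6v0c and 0.16 for Atp6ap2 and were not called in either limma fit of these groups. The catalytic subunit Atp6v1a, the stator subunit Atp6v1c1 and the regulatory subunit Atp6v1h had values of -0.04 ± 0.14, 0.04 ± 0.14 and -0.11 ± 0.20. The median of the 10 differences was -0.26, against 0.01 over all genes tested.

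**Figure D2:**
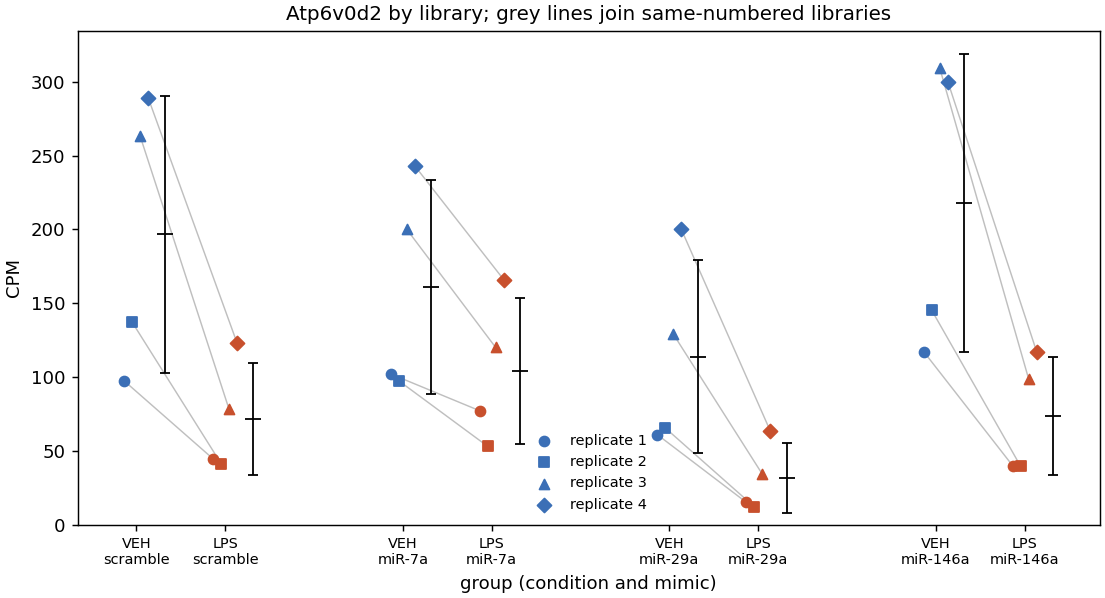
CPM of Atp6v0d2 in each library by condition and mimic, with a marker shape for each replicate number, grey lines joining same-numbered libraries and black bars for the mean ± SD of 4 libraries. All 16 lines run downward from VEH to LPS, and libraries 3 and 4 lie above libraries 1 and 2 in every group.

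Atp6v0d2 was also lower under LPS with each mimic. With miR-29a it was at 60.9, 65.4, 129 and 200 CPM under vehicle and at 15.1, 12.1, 34.3 and 63.6 CPM under LPS. Only LPS_miR-29a library 4 reached into the vehicle range. It fell by 2.09 ± 0.49 on the log2 scale, to 0.234-fold (adjusted p = 0.0084 by limma voom). With the replicate block it fell by 1.96 ± 0.16. The call held without each of the 8 libraries in turn, with differences between -2.47 and -1.65. With miR-146a it was at 117, 145, 309 and 300 CPM under vehicle and at 39.8, 39.4, 98.5 and 117 CPM under LPS, whose library 4 lay at the level of the lowest vehicle library. It fell by 1.75 ± 0.38 on the log2 scale, to 0.298-fold (adjusted p = 0.0201). That unblocked call was lost without VEH_miR-146a replicate 3 (-1.54, adjusted p = 0.0694), VEH_miR-146a replicate 4 (-1.55, adjusted p = 0.0606), LPS_miR-146a replicate 1 (-1.50, adjusted p = 0.0643) or LPS_miR-146a replicate 2 (-1.48, adjusted p = 0.0706). With the replicate block Atp6v0d2 fell by 1.62 ± 0.14 (adjusted p = 0.000152 by limma voom). The numbers do not pair these libraries by the rule used (lowest correlation 0.0822).

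With miR-7a, Atp6v0d2 was at 102, 97.4, 200 and 243 CPM under vehicle and at 77.1, 53.0, 120 and 166 CPM under LPS. The groups overlapped, although within each number the LPS library was the lower one, and the difference of -0.58 ± 0.36 was not called (adjusted p = 0.422 by limma voom). With the replicate block it was -0.65 ± 0.14 (adjusted p = 0.00595 by limma voom). Here too the numbers do not pair the libraries by the rule used. No member was called for LPS with miR-7a without the block: 0 of 10 had an unadjusted p under 0.05, and edgeR and DESeq2 also called 0, where 6.41% of all genes were called. Whether the LPS effect differed between mimics and the scramble control was tested as an interaction. For Atp6v0d2 the interaction was 0.82 ± 0.61 with miR-7a (adjusted p = 0.954), -0.66 ± 0.71 with miR-29a (adjusted p = 0.921) and -0.32 ± 0.62 with miR-146a (adjusted p = 0.867). With the replicate block it was 0.78 ± 0.20 with miR-7a (unadjusted p = 0.00123, adjusted p = 0.121 by limma voom). It was -0.51 ± 0.24 with miR-29a (adjusted p = 0.428) and -0.14 ± 0.19 with miR-146a (adjusted p = 0.729) in that fit. The fall of Atp6v0d2 was thus not shown to differ between a mimic and the scramble control. The mimics were not tested against one another.

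The LPS comparison with miR-29a had the most members called, 4 of 10, where 26.3% of all 12288 genes tested were called. Beside Atp6v0d2 these were Atp6v0a1, Atp6v1b2 and Atp6ap2, and each of the 4 calls held without each library in turn. Atp6v0a1 (chromosome 11, 101009452 to 101063719, plus strand) went from 207, 213, 223 and 270 CPM under vehicle to 135, 125, 128 and 135 CPM under LPS, with a wide gap between the groups. It fell by 0.80 ± 0.13 on the log2 scale (adjusted p = 0.000867 by limma voom). Atp6v1b2 went from 1039, 793, 1001 and 941 CPM to 631, 555, 620 and 704 CPM, and fell by 0.59 ± 0.14 (adjusted p = 0.00852). Atp6ap2 moved the other way, from 37.6, 30.4, 43.7 and 41.8 CPM to 70.7, 51.2, 71.1 and 55.3 CPM, and rose by 0.64 ± 0.17 (adjusted p = 0.0162). No library of one condition reached into the other in these 3 genes.

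With the replicate block, 6 of 10 members were called in that comparison, against 37.4% of all genes. The added genes were Atp6v1a (-0.29 ± 0.10, adjusted p = 0.041 by limma voom) and Atp6v0d1 (-0.39 ± 0.10, adjusted p = 0.00841). In the unblocked limma fit of these groups, Atp6v0d1 had -0.40 ± 0.15 (adjusted p = 0.077) and Atp6v1a an adjusted p of 0.0934. Without a block, Atp6v0d1 was called when VEH_miR-29a replicate 4 was left out (-0.49, adjusted p = 0.0485) and with all 8 groups in 1 fit (-0.38, adjusted p = 0.0469). Atp6v1a was called with all 8 groups (adjusted p = 0.0415) and by DESeq2 (adjusted p = 0.0405). Atp6v1c1 (0.09), Atp6v1h (0.16), Atp6v0c (-0.16) and Atp6ap1 (-0.26) were not called in either limma fit of these groups. With miR-146a, Atp6v0d2 was the 1 member of 10 called for LPS, where 4.28% of all genes were called, and the other 9 lay between -0.30 for Atp6v1b2 and 0.23 for Atp6ap2.

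Under vehicle the mimics were compared with the scramble control, and the 3 mimics share its 4 libraries. No member was called for any mimic in the unblocked limma fits of 2 groups. For miR-7a 0 of 10 members had an unadjusted p under 0.05 and 0.0359% of all genes were called, and for miR-29a it was 0 of 10 and 0.00854%. For miR-146a 2 of 10 had an unadjusted p under 0.05 and 2.27% of all genes were called. edgeR called 0 members for each mimic, and DESeq2 called 1, Atp6v1a with miR-146a. Atp6v1a was at 828, 688, 713 and 719 CPM in VEH_scramble and at 977, 943, 987 and 877 CPM in VEH_miR-146a. The miR-146a libraries were all higher, by 0.37 ± 0.14 on the log2 scale (adjusted p = 0.128 by limma voom, 0.0211 with all 8 groups in 1 fit, 0.0402 by DESeq2). Atp6v1a and Atp6v0c are the genes shown above with a match to the miR-146a-5p seed. Atp6v0c had -0.38 ± 0.28 (adjusted p = 0.415), with overlapping groups.

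With the replicate block 1 member was called under vehicle, Atp6v0d2 with miR-29a, where 0.564% of all genes were called. It was lower in each VEH_miR-29a library than in the VEH_scramble library of the same number, by 0.83 ± 0.13 on the log2 scale (adjusted p = 0.0363 by limma voom). Without the block the difference was -0.81 ± 0.41 (adjusted p = 0.507). Libraries 1 and 2 of each group lay below libraries 3 and 4.

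Under LPS, Atp6v0a1 was the 1 member called for each mimic in the unblocked limma fits of 2 groups. The 3 comparisons share the 4 LPS_scramble libraries, and leaving out LPS_scramble replicate 4 alone lost the call in all 3 (adjusted p by limma voom = 0.0694 for miR-146a, 0.0769 for miR-29a, 0.142 for miR-7a). It was at 170, 189, 204 and 175 CPM in LPS_scramble, at 227, 266, 283 and 314 CPM in LPS_miR-7a and at 278, 286, 313 and 284 CPM in LPS_miR-146a. In LPS_miR-29a it was at 135, 125, 128 and 135 CPM. The scramble libraries lay between the others without overlap, above all LPS_miR-29a libraries and below all libraries of the other 2 mimics.

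With miR-146a, Atp6v0a1 rose by 0.66 ± 0.10 on the log2 scale, to 1.58-fold (adjusted p = 0.0137 by limma voom), and was the 1 member of 10 called where 2.33% of all genes were called. The call was lost without LPS_scramble replicate 4 (0.63, adjusted p = 0.0694) or LPS_miR-146a replicate 3 (0.63, adjusted p = 0.065). With miR-7a it rose by 0.56 ± 0.13, to 1.48-fold (adjusted p = 0.0428), the 1 call of 10 against 2.6% of all genes. That call was lost without any of 7 libraries: LPS_scramble replicates 1, 2, 3 and 4 (0.52, 0.58, 0.61 and 0.53) and LPS_miR-7a replicates 2, 3 and 4 (0.57, 0.54 and 0.49), with adjusted p between 0.0685 and 0.142. With miR-29a it fell by 0.49 ± 0.11, to 0.711-fold (adjusted p = 0.0249), the 1 call of 10 against 4.7% of all genes. That call was lost without LPS_scramble replicates 2, 3 or 4 (-0.46, -0.44 and -0.51) or LPS_miR-29a replicates 1 or 3 (-0.50 and -0.48), with adjusted p between 0.0591 and 0.0813. In all 3 comparisons same-numbered libraries deviated together, and with the replicate block the adjusted p of Atp6v0a1 was 0.00115, 0.00261 and 0.00533 for miR-146a, miR-7a and miR-29a.

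**Figure D3:**
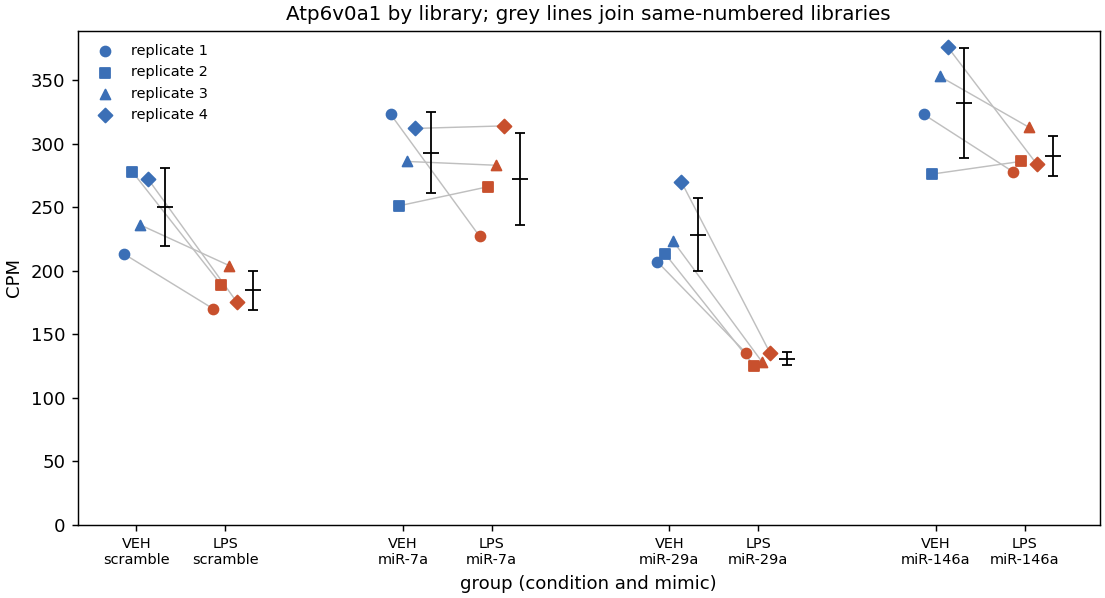
CPM of Atp6v0a1 in each library by condition and mimic, with a marker shape for each replicate number, grey lines joining same-numbered libraries and black bars for the mean ± SD of 4 libraries. Under LPS the 4 scramble libraries (170 to 204 CPM) lie above the 4 miR-29a libraries (125 to 135 CPM) and below those of miR-7a (227 to 314 CPM) and miR-146a (278 to 313 CPM).

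The same 3 differences under vehicle were smaller and not called in the unblocked limma fits of 2 groups: 0.42 ± 0.16 with miR-146a (adjusted p = 0.128, and 0.0208 with all 8 groups in 1 fit), 0.26 ± 0.16 with miR-7a (adjusted p = 0.529) and -0.14 ± 0.16 with miR-29a (adjusted p = 0.79). The interactions for Atp6v0a1 were 0.22 ± 0.17, 0.30 ± 0.19 and -0.38 ± 0.17 in the same order, with adjusted p of 0.643, 0.931 and 0.742, so an effect of the mimics confined to LPS was not shown. Over all members, 0 of 10 were called for each interaction by limma voom, edgeR and DESeq2. Without the block, an unadjusted p under 0.05 was found for 0 members with miR-7a, for 1 with miR-29a (Atp6v0a1) and for 0 with miR-146a. With it, the members were Atp6v0d2 and Atp6v0c with miR-7a (unadjusted p = 0.00123 and 0.0295 by limma voom), Atp6v0a1 and Atp6v0d2 with miR-29a (0.0216 and 0.0457) and Atp6v0d1 with miR-146a (0.0218), and none of these was called. Over all genes 0.00816%, 0.016% and 0.0% were called, so these fits called almost nothing in any gene.

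With the replicate block, the LPS comparisons of the mimics added further members. With miR-7a 4 of 10 were called against 9.35% of all genes: beside Atp6v0a1, these were Atp6v1h (0.49 ± 0.09, adjusted p = 0.0053 by limma voom), Atp6v0d2 (0.53 ± 0.11, adjusted p = 0.00859) and Atp6ap2 (0.48 ± 0.11, adjusted p = 0.0123). Atp6v1h was at 145, 156, 139 and 144 CPM in LPS_scramble and at 238, 206, 177 and 202 CPM in LPS_miR-7a, without overlap, and its unblocked adjusted p was 0.0523. Other unblocked fits called Atp6v1h (adjusted p = 0.00574 by DESeq2, 0.0498 with all 8 groups and 0.0498 without structural RNA genes) and Atp6ap2 (adjusted p = 0.0474 by DESeq2). Atp6ap2 rose from 49.6 to 62.0 CPM in LPS_scramble to 68.9 to 108 CPM in LPS_miR-7a, also without overlap, and its unblocked adjusted p was 0.102 by limma voom. The groups of Atp6v0d2 overlapped (41.3 to 123 CPM against 53.0 to 166 CPM). Its unblocked difference was 0.51 ± 0.39 (adjusted p = 0.548 by limma voom).

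With miR-29a the blocked fit called 3 of 10 against 10.2% of all genes. Atp6v0d2 fell in it by 1.28 ± 0.18 on the log2 scale (adjusted p = 0.000637 by limma voom), and it was lower in LPS_miR-29a than in LPS_scramble in each of the 4 numbers. Without the block the difference was -1.45 ± 0.48 (adjusted p = 0.112), and without a filter on low values it was called (-1.51, adjusted p = 0.0458). Atp6v1h rose by 0.32 ± 0.09 (adjusted p = 0.0328), from 139 to 156 CPM in LPS_scramble to 174 to 190 CPM in LPS_miR-29a, and without the block had an adjusted p of 0.0847 by limma voom and 0.0308 by DESeq2.

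With miR-146a the blocked fit called 3 of 10 against 10.4% of all genes. Atp6v1a rose by 0.29 ± 0.06 (adjusted p = 0.0201 by limma voom) and Atp6v0d1 by 0.27 ± 0.07 (adjusted p = 0.0481), beside Atp6v0a1. Atp6v1a was at 727, 799, 657 and 641 CPM in LPS_scramble and at 917, 921, 849 and 754 CPM in LPS_miR-146a. LPS_miR-146a library 4 lay within the LPS_scramble range, and the unblocked adjusted p was 0.224. The groups of Atp6v0d1 overlapped (201 to 312 CPM in LPS_scramble, 252 to 372 CPM in LPS_miR-146a). Its unblocked difference was 0.27 ± 0.16 (adjusted p = 0.414 by limma voom). Atp6v0d2 did not pass with miR-146a under LPS (-0.14 ± 0.41 without and 0.07 ± 0.12 with the block).

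**Figure D4:**
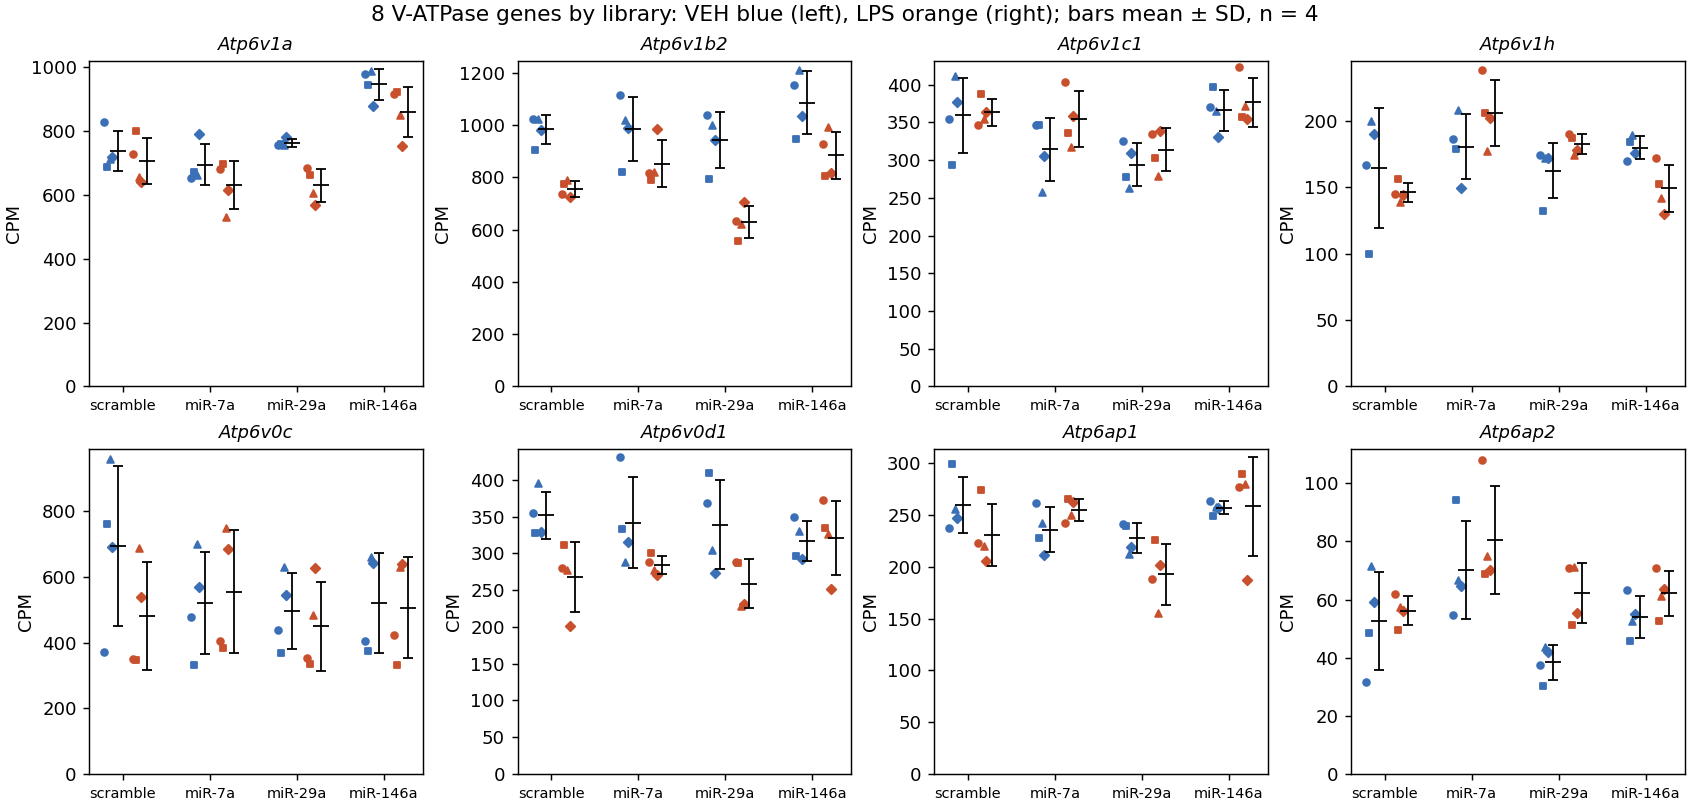
CPM of the 8 other genes in each library, by mimic, with VEH libraries in blue on the left and LPS libraries in orange on the right of each pair, a marker shape for each replicate number, and bars for the mean ± SD of 4 libraries on an axis from 0. Atp6v1b2 is lower under LPS with scramble and miR-29a without overlap, and Atp6ap2 is higher under LPS with miR-29a without overlap.

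**Figure D5:**
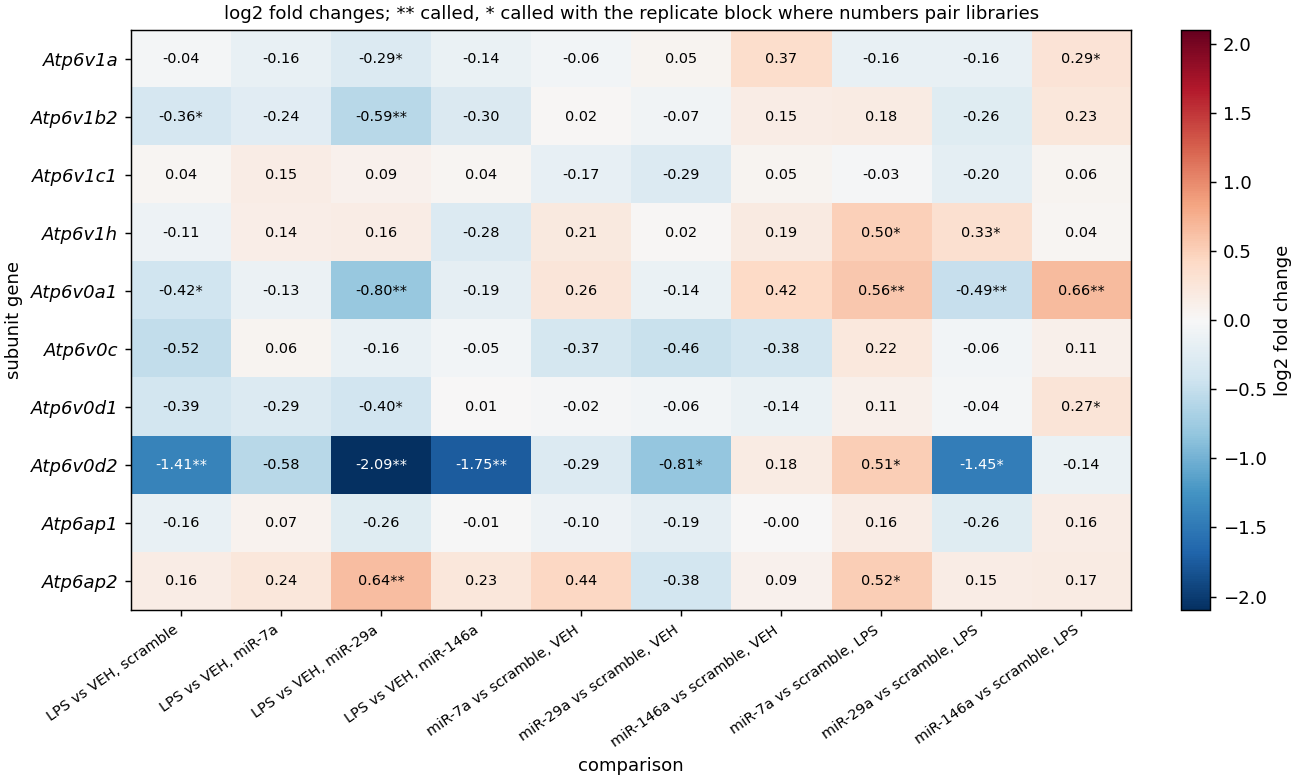
Log2 fold change of each gene (rows) in each of the 10 comparisons of 2 groups (columns), without the replicate block. A pair of asterisks marks an adjusted p under 0.05 in that fit, and 1 asterisk marks one in the blocked fit only, for the 6 comparisons whose numbers pair the libraries. Atp6v0d2 has the lowest value, -2.09, and Atp6v0a1 holds all 3 calls among the mimic comparisons.

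Atp6v0d2 also differed by library number. Over the 8 groups its median was 69.0 and 59.2 CPM in libraries numbered 1 and 2 and 125 and 183 CPM in those numbered 3 and 4. Atp6v0c showed a like pattern, with medians of 405 and 358 CPM against 674 and 632 CPM, while those of Atp6v1a lay between 688 and 741 CPM. The study's methods call BV-2 replicates independent experiments. Neither they nor the labels say whether a number marks the same experiment in every group, and its part in these levels was not tested. Per kilobase, Atp6v0d2 made up 25.5% ± 9.32 of the 2 d subunit genes together in VEH_scramble and 15.1% ± 9.26 in LPS_scramble (SD, n = 4). In LPS_miR-29a the share was 7.41% ± 5.76, from 2.63% to 15%.

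Across the 32 libraries, the 3 genes whose log2 CPM followed Atp6v0d2 most closely among 10132 were Plau, which encodes the urokinase plasminogen activator (r = 0.928), Cd9, a tetraspanin (r = 0.894), and Gm2a, the lysosomal activator of ganglioside breakdown (r = 0.883). For Atp6v0d1 they were Ilk (r = 0.864), Renbp (r = 0.857) and Cotl1 (r = 0.857). These are Pearson correlations over libraries that share groups, numbers and depth, and are a description of these 32 libraries.

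The other genes of the pathway were taken from lists of subunits, assembly factors, lysosomal channels and transcription factors. Of 17 further subunit genes, 10 were tested for LPS with the scramble control, among them Tcirg1, the a3 membrane subunit of macrophages and osteoclasts. The 7 not tested there in the unblocked fit were isoforms such as Atp6v1b1 and Atp6v0a4 with averages under 0.04 CPM, and Atp6v1g2 or Rnasek were also left out of some comparisons. None of those tested was called for LPS with the scramble control or any mimic in the unblocked limma fits, where 4.28% to 26.3% of all genes were called, and their median differences lay between -0.26 and -0.05, against -0.02 to 0.02 over all genes. Among the mimic comparisons 1 was called, where 2.6% of all genes were, Atp6v1e1, a stator subunit, which fell by 0.69 ± 0.15 with miR-7a under LPS (adjusted p = 0.0395 by limma voom). That call was lost without LPS_scramble replicates 1, 3 or 4 or LPS_miR-7a replicates 2 or 3 (differences over the 8 libraries left out of -0.79 to -0.57, adjusted p up to 0.116). With the block it fell by 0.70 ± 0.10 (adjusted p = 0.00111). Under vehicle the difference of Atp6v1e1 with miR-7a was -0.99 ± 0.22 and was not called without the block (adjusted p = 0.116). It was called lower with the block, although the numbers do not pair those libraries by the rule used.

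The 4 transcription factors of lysosomal genes were all tested. Tfeb, the best known activator of lysosomal and V-ATPase genes, fell under LPS with scramble by 0.88 ± 0.19 (adjusted p = 0.00913 by limma voom) and with miR-29a by 1.07 ± 0.23 (adjusted p = 0.00591), and both calls held without each library. Tfe3, its relative, fell with miR-29a by 0.57 ± 0.12 (adjusted p = 0.00519). The list had 1 of 4 called with scramble, where 17.5% of all genes were called, and 2 of 4 with miR-29a, where it was 26.3%. It had 0 of 4 called with miR-7a (6.41% of all genes) and with miR-146a (4.28%). The letters CACGTG, which this family of factors reads and which are the same on both strands, occur in 7.15% of 32851 RefSeq promoter windows (GRCm38, from 250 bases before to 50 after a start). Of 8 windows of 6 members, 2 hold them, shown with 12 bases on either side on the gene's strand. They are shown because Tfeb moved in these comparisons.
Atp6v0d1 promoter: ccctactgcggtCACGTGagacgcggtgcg
Atp6v1a promoter: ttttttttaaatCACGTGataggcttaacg
The first match begins 3 bases before the start site and the second 131 bases before it. Under LPS with the scramble control, Atp6v0d1 had -0.39 ± 0.16 (adjusted p = 0.115 by limma voom, and 0.0396 with all 8 groups in 1 fit) and Atp6v1a -0.04 ± 0.14 (adjusted p = 0.853). Under LPS with miR-29a, both were called lower with the replicate block and with all 8 groups in 1 fit, with the values given above. A match, or its absence, shows nothing about what a factor did in these cells. Atp6v0a1 is among the members whose window holds no match. Its window (chr11:101010148-101010447) and that of Atp6v1a (chr16:44139210-44139509) lie inside the annotated genes, so their outermost annotated starts were not searched. Atp6v0d2, Atp6v1b2, Atp6v1c1 and Atp6v1h had no window.

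Of 13 genes of lysosomal channels and amino acid sensing, 12 were tested. Under LPS 2 of 12 were called with scramble, where 17.5% of all genes were called, and 3 of 12 with miR-29a, where it was 26.3%, so both shares were near the background. With miR-7a (6.41% of all genes) and miR-146a (4.28%) 0 of 12 were called. Lamtor1, of the complex that tethers amino acid sensing to the V-ATPase, and Flcn, which acts in the same sensing, fell under LPS with scramble (-0.54 ± 0.16, adjusted p = 0.0354, and -0.74 ± 0.15, adjusted p = 0.00569 by limma voom) and with miR-29a (-0.64 ± 0.14 and -0.86 ± 0.15). Mcoln1, a lysosomal calcium channel, fell with miR-29a by 0.61 ± 0.16 (adjusted p = 0.0164). The call of Lamtor1 with scramble was lost without VEH_scramble replicates 2, 3 or 4 or LPS_scramble replicates 1, 2 or 4, with adjusted p up to 0.0991, and that of Mcoln1 without VEH_miR-29a replicate 3 (adjusted p = 0.0592).

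Among mimic comparisons under LPS, 2 of 12 channel and sensing genes were called with miR-7a (2.6% of all genes), 1 with miR-29a (4.7%) and 1 with miR-146a (2.33%). Ostm1, the partner of the lysosomal chloride channel Clcn7, rose with miR-7a by 0.62 ± 0.12 (adjusted p = 0.0264 by limma voom) and with miR-29a by 0.58 ± 0.11 (adjusted p = 0.0131), and Clcn7 itself rose with miR-7a by 0.82 ± 0.19 (adjusted p = 0.0415). Flcn rose with miR-146a by 0.77 ± 0.11 (adjusted p = 0.00956). These calls were lost without single libraries, while the differences stayed between 0.68 and 1.01 for Clcn7, 0.55 and 0.66 for Ostm1 with miR-7a, 0.53 and 0.61 for Ostm1 with miR-29a, and 0.72 and 0.82 for Flcn. The calls were lost for Clcn7 without 7 of 8 (adjusted p up to 0.116), all but LPS_miR-7a replicate 1, and for Ostm1 with miR-7a without 6 of 8, all but LPS_miR-7a replicates 1 and 4. Ostm1 with miR-29a lost its call without LPS_scramble replicate 4 (adjusted p = 0.0672), and Flcn without LPS_scramble replicate 4 or LPS_miR-146a replicate 3 (adjusted p up to 0.0631).

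All 11 assembly and regulation genes were tested. Under LPS 1 of 11 was called with scramble, against 17.5% of all genes, 2 of 11 with miR-29a, against 26.3%, 1 of 11 with miR-146a, against 4.28%, and 0 of 11 with miR-7a, against 6.41%. Ccdc115, an assembly factor of the pump, fell under LPS with scramble by 0.67 ± 0.16 (adjusted p = 0.0159 by limma voom) and with miR-29a by 0.90 ± 0.18 (adjusted p = 0.00359). The first call was lost without LPS_scramble replicate 4 (adjusted p = 0.0582). Ncoa7, which binds the V1 part, rose with miR-29a by 0.54 ± 0.19 (adjusted p = 0.0475), and Dmxl1, of a complex that promotes assembly, fell with miR-146a by 0.50 ± 0.12 (adjusted p = 0.0309). The call of Ncoa7 was lost without VEH_miR-29a replicates 1, 2 or 4 or LPS_miR-29a replicates 1 or 3 (adjusted p up to 0.124). That of Dmxl1 was lost without any 1 library but VEH_miR-146a replicate 4 (adjusted p up to 0.116).

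With the replicate block, in the comparisons whose numbers pair the libraries, these lists gained calls and lost none. For LPS with scramble, 2 of 10 further subunits fell (Atp6v0b, Atp6v1g1), and Tldc1, Rragc and Tfe3 were added as lower, for 2 of 11 assembly genes, 3 of 12 channel and sensing genes and 2 of 4 transcription factors. In that fit 24.9% of all genes were called, so the shares of the first 3 lists were near or below the background. For LPS with miR-29a, Atp6v1d was added as higher and Atp6v1f, Clcn7, Tmem175 and Mitf as lower, for 2 of 10, 5 of 12 and 3 of 4 in the subunit, channel and transcription factor lists, where 37.4% of all genes were called. For miR-7a under LPS, where 9.35% of all genes were called, Atp6v0a2, Atp6v0b, Wdr7 and Rragc were added as higher and Slc38a9 as lower. For miR-29a under LPS (10.2% of all genes), Ccdc115 and Tfeb were added as lower. For miR-146a under LPS (10.4% of all genes), Atp6v1g1, Dmxl1 and Rragc were added as higher and Atp6v1f as lower.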

How the data were processed

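Total RNA of BV-2 cells was depleted of ribosomal RNA and made into total RNA libraries (CORALL), sequenced from one end. The authors aligned and quantified the reads on GRCm38 with the nf-core rnaseq workflow and deposited 1 estimated count per gene and library. The submitters' processing notes name limma and edgeR. The deposited values had lost their decimal marks. A model restored them from the last digits and from each gene's level in the other libraries. It read 28.6% of the values above 0 as fractional and left 1.19% uncertain (posterior under 0.9). A gene uncertain in any library of a comparison was not tested there. All 320 member values had a posterior of at least 0.998. The structural RNA shares use the most probable reading. Restoration and tests were tested on simulated data.

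Differences were tested with limma 3.58.1 (voom, filterByExpr, TMM factors from edgeR 4.0.16, R 4.3.3) on the groups compared only, after the study's methods, with Benjamini-Hochberg adjustment over all genes tested. A gene was called at an adjusted p under 0.05. The p-values of unblocked fits measure differences against the spread between libraries with the same label. Those of blocked fits use the spread left after the replicate number is taken out. CPM values use TMM sizes over 12492 genes in all 32 libraries, and levels of different genes were divided by transcript length. Likeness used log2(CPM + 0.5) of genes averaging at least 5 CPM. Estimated counts were rounded for edgeR's quasi-likelihood test and DESeq2 1.42.0 only.

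Labels number the libraries of each group 1 to 4. Correlations of same-numbered libraries' deviations from their group means were above 0.1 for every number in 6 of 10 comparisons: LPS with scramble (0.195 to 0.288) and miR-29a (0.206 to 0.371), miR-29a under vehicle (0.171 to 0.472), and miR-7a (0.223 to 0.433), miR-29a (0.27 to 0.497) and miR-146a (0.116 to 0.455) under LPS. There the fit with the number as a block is given beside the result. Alternatives were that block, all 8 groups in 1 fit, edgeR, DESeq2, DESeq2 size factors, no filter, a posterior of at least 0.99, and each library left out in turn. The 2 alternatives without structural RNA genes and without 3 VEH_miR-7a libraries were chosen after seeing the data. All members and the genes called from the pathway lists were named. Members and lists were chosen with earlier results of these data known. No column of per-sample values was unused. LPS was given before transfection per the labels and after it per the study's methods.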

Additional observations from a re-analysis of the deposited data

Results flagged for a closer look

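In 5 of 80 sets of 4 libraries (10 genes in 8 groups), 1 library lay apart from the other 3 by Dixon's test, which chance gives in about 1 of 20 sets. Atp6v1a was at 791 CPM in VEH_miR-7a replicate 4, against 654 to 670 CPM in the others of its group, and that library was the shallowest of the series. Atp6v1b2 was at 985 CPM in LPS_miR-7a replicate 4, against 791 to 819 CPM. Atp6v1h was low at 132 CPM in VEH_miR-29a replicate 2, against 172 to 174 CPM. Atp6ap1 was low at 187 CPM in LPS_miR-146a replicate 4, against 277 to 290 CPM. Atp6ap2 was at 108 CPM in LPS_miR-7a replicate 1, against 68.9 to 74.9 CPM. No interaction of a mimic with LPS was called for the 10 genes.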

How the results depend on the processing

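Of 2350 member differences recomputed under an alternative, 22 lost a call and 33 gained one. Another 86 changed sign, none of them with an adjusted p under 0.05 in either fit, and the largest of these was 0.32 in size. The count of members called for LPS with scramble, 1 in the fit used, was 3 with the replicate block, 4 with all 8 groups in 1 fit and 3 with DESeq2. For miR-7a under LPS it was 4, 2 and 3 in the same order against 1, and 2 without structural RNA genes. For miR-29a under LPS it was 3 with the block, 2 with DESeq2 and 2 without a filter, against 1, and for miR-146a under LPS 3 with the block against 1. For miR-146a under vehicle it was 2 with all 8 groups (Atp6v1a, Atp6v0a1) and 1 with DESeq2, against 0. For miR-29a under vehicle and for LPS with miR-7a it was 1 with the block, Atp6v0d2 in both, against 0. The numbers do not pair the libraries by the rule used in LPS with miR-7a (lowest correlation 0.0669), where the blocked difference was -0.65 (adjusted p = 0.00595 by limma voom). In the comparisons the numbers do not pair, the block also added these genes of the pathway lists: Tcirg1 (0.59, adjusted p = 0.0253 by limma voom) and Atp6v1f (-0.46, adjusted p = 0.0307) for LPS with miR-7a, Atp6v1e1 (-0.98, adjusted p = 0.00768) for miR-7a under vehicle, and Dmxl1 and Ncoa7, both higher, for miR-146a under vehicle. The block changed no other member's call beside those given here and in the report. The cause of these changes was not tested.

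Leaving out 1 library gave 0 to 3 members for LPS with scramble, 4 to 5 with miR-29a, 0 to 1 with miR-146a, 0 to 1 for each mimic under LPS and 0 to 0 elsewhere.

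Counts over all genes moved by more than 1.5 times as follows. For LPS with miR-7a, 762 became 1747 with the block, 1242 with DESeq2, 7854 without a filter and 44 without 3 VEH_miR-7a libraries. That last setting leaves 1 vehicle library, assumed to vary like the other group, so its low counts say nothing about stability. For LPS with miR-146a, 520 became 838, 863 and 805 with the block, all 8 groups and DESeq2. For miR-7a under vehicle, 4 became 326, 171 and 225 in that order, 19 with edgeR, 27 without a filter, 20 at the stricter posterior, 25 without structural RNA genes and 0 with 1 VEH_miR-7a library left. For miR-29a under vehicle, 1 became 66, 81 and 110, 0 with edgeR and 2 without a filter. For miR-146a under vehicle, 269 became 876, 1593 and 1238, and 437 without a filter. Under LPS, the block and DESeq2 gave 1223 and 794 against 340 for miR-7a, 1351 and 1023 against 625 for miR-29a, and 1325 and 666 against 295 for miR-146a, where edgeR gave 162. For the interactions they gave 38 and 69 against 1 for miR-7a, with 3 for all 8 groups, 16 and 20 against 2 for miR-29a, with 5 without a filter, and DESeq2 gave 23 against 0 for miR-146a. VEH_miR-7a replicate 4, the shallowest library with 1122014 estimated counts, enters each vehicle value of miR-7a.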
